A study of Arabidopsis thaliana with 16 samples.

Results

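The 10 cold and drought genes described here are the transcription factor genes CBF1, CBF2 and CBF3 and 7 genes switched on by cold, drought or abscisic acid, namely COR15A, COR15B, COR47, RD29A, RD29B, KIN1 and KIN2. They were chosen by locus identifier, out of 27444 protein-coding genes on the 5 nuclear chromosomes of Arabidopsis thaliana. H2A.Z and histone H3 were measured by ChIP-seq in shoots collected 13 days after germination from the single mutants mbd9-3 and arp6-1, from the double mutant arp6-1 mbd9-3 and from wild type, all in the Columbia-0 background. Each genotype had 2 replicates grown on separate plates, and the tissue of each replicate was divided between the H2A.Z and the H3 immunoprecipitation. The plants grew on agar medium with sucrose under long days, and the labels name no cold or drought treatment. Seedling shoots hold many cell types, so fewer cells with H2A.Z at a gene and less H2A.Z in each cell cannot be told apart.

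H2A.Z is a variant of histone H2A that the SWR1 remodelling complex places into nucleosomes, in plants mostly just after the start of genes and along the bodies of genes that respond to the environment. ARP6 is a conserved subunit of SWR1, and MBD9 is a methyl-CpG-binding domain protein that associates with the complex. CBF1, CBF2 and CBF3 (also DREB1B, DREB1C and DREB1A) encode AP2/ERF transcription factors that are induced within minutes to hours of chilling and bind the CRT/DRE element, whose core is CCGAC, in front of COR, RD29 and KIN genes. The products of those genes, among them dehydrins and small hydrophilic proteins, protect membranes and proteins during freezing and water loss.

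The values are summits, the single base at which a peak is highest. For each replicate there were summits of H2A.Z over H3 of the same genotype, and summits where H2A.Z was lower in a mutant than in the genotype it was compared with, which are called loss here. Each summit has a score, −log10 q, so a higher score is a more certain peak within its own list, and scores of different lists were not compared. Read depth is unknown from these lists, which held 15024 and 17839 summits over H3 in mbd9-3, 3827 and 7506 in arp6-1, 1243 and 1265 in arp6-1 mbd9-3, and 29980 and 26536 in wild type. A gene was called when summits of both replicates, each inside the gene or within 500 bp of its ends, lay no more than 200 bp apart. An exact permutation test of 2 replicates against 2 cannot give a two-sided p below 0.333, so no test between genotypes was made, and each call rests on the agreement of 2 replicates.

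The 10 genes carried H2A.Z in wild type without exception, and fewer of them were called for a summit in each mutant. In mbd9-3, 9 of the 10 had a common H2A.Z summit, against 32.3% of all protein-coding genes. In arp6-1 it was 6 of the 10, against 9.77% of all genes, and in arp6-1 mbd9-3 it was 1 of the 10, against 1.32%. In wild type all 10 had a common summit, against 55.2% of all genes. Since a gene without H2A.Z in wild type could hardly keep it, the 15142 genes called in wild type are the closer background. Of these, 55.8% had a common summit in mbd9-3, 17.3% in arp6-1 and 2.35% in the double mutant. The count in the double mutant depended on the replicate, with 2 of the 10 genes holding a summit in replicate 1 and 4 in replicate 2. Of all protein-coding genes, 3.80% and 3.93% held one. In arp6-1 the numbers were 6 genes in replicate 1 and 9 in replicate 2, whose list was also the longer, against 12.2% and 21.3% of all genes. The arp6-1 calls of RD29A and KIN2 each include a summit of 2.03, above only 0.836% and 0.946% of its list. With a score of at least 5 asked of both replicates, 3 of the 10 were called in arp6-1, against 4.94% of all genes.

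Loss divided the genes differently. In mbd9-3 compared with wild type, 3 of the 10 were called, and these were CBF1, CBF2 and CBF3. The same call was made for 10.8% of all protein-coding genes and for 15.7% of those called in wild type. In arp6-1, 5 of the 10 were called (the CBF genes, RD29A and RD29B), against 46.9% of all genes and 70.3% of those called in wild type. In arp6-1 mbd9-3, 6 of the 10 were called (those 5 and COR15B), against 57.9% and 85.3%. Further loss in arp6-1 mbd9-3 compared with arp6-1 was called at CBF3 alone, 1 of the 10, against 3.48% of all genes. Of the 6 with a common summit in arp6-1 this is also 1, against 28.5% of the 2681 genes with such a summit. The 3 comparisons with wild type use the same wild-type libraries, so their calls are not independent of each other.

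**Figure D1:**
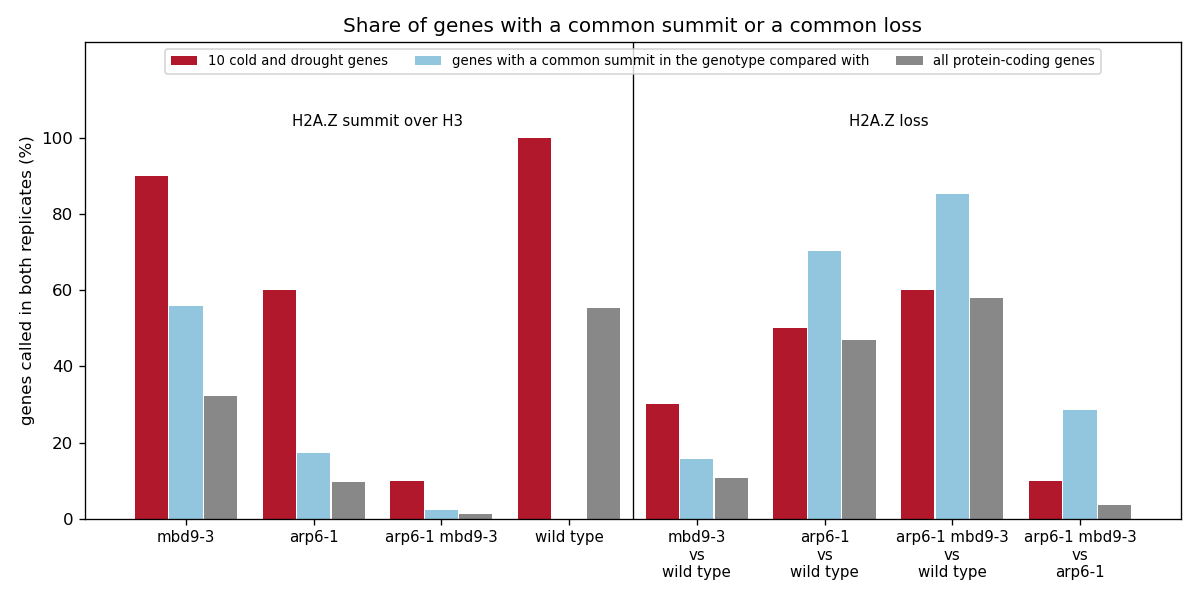
Share of genes, in percent, called in both replicates for a summit over H3 (left 4 groups of bars) and for loss (right 4 groups). Dark red bars are the 10 cold and drought genes, blue bars the genes called for a summit in wild type (in arp6-1 for the last group) and grey bars all protein-coding genes. The dark red bars stand above both others for summits in each mutant and for loss in mbd9-3, and below the blue bars for the other 3 losses. In the last group the dark red bar counts all 10 genes, of which 6 were called for a summit in arp6-1.

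The H2A.Z summits lay inside the genes and mostly in coding sequence. Of the 40 wild-type summits in the windows of the 10 genes, 39 were in coding exons, 1 was in a 5′ UTR, and 0 were in the 500 bp flanks, where 13.7% and 12.5% of wild-type summits lay across all genes called in wild type (replicates 1 and 2). None of the summits in the windows, over all 16 lists, lay inside another annotated gene. The highest wild-type summit was a median of 613.5 and 607.5 bp from the annotated start of the 10 genes, against 390.0 and 394.0 bp for all genes called in wild type. Several of the 10 have long annotated 5′ ends, the longest in COR47, whose start codon is 1209 bp from its start. Measured from the start codon, the medians were 276.0 and 324.0 bp.

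**Figure D2:**
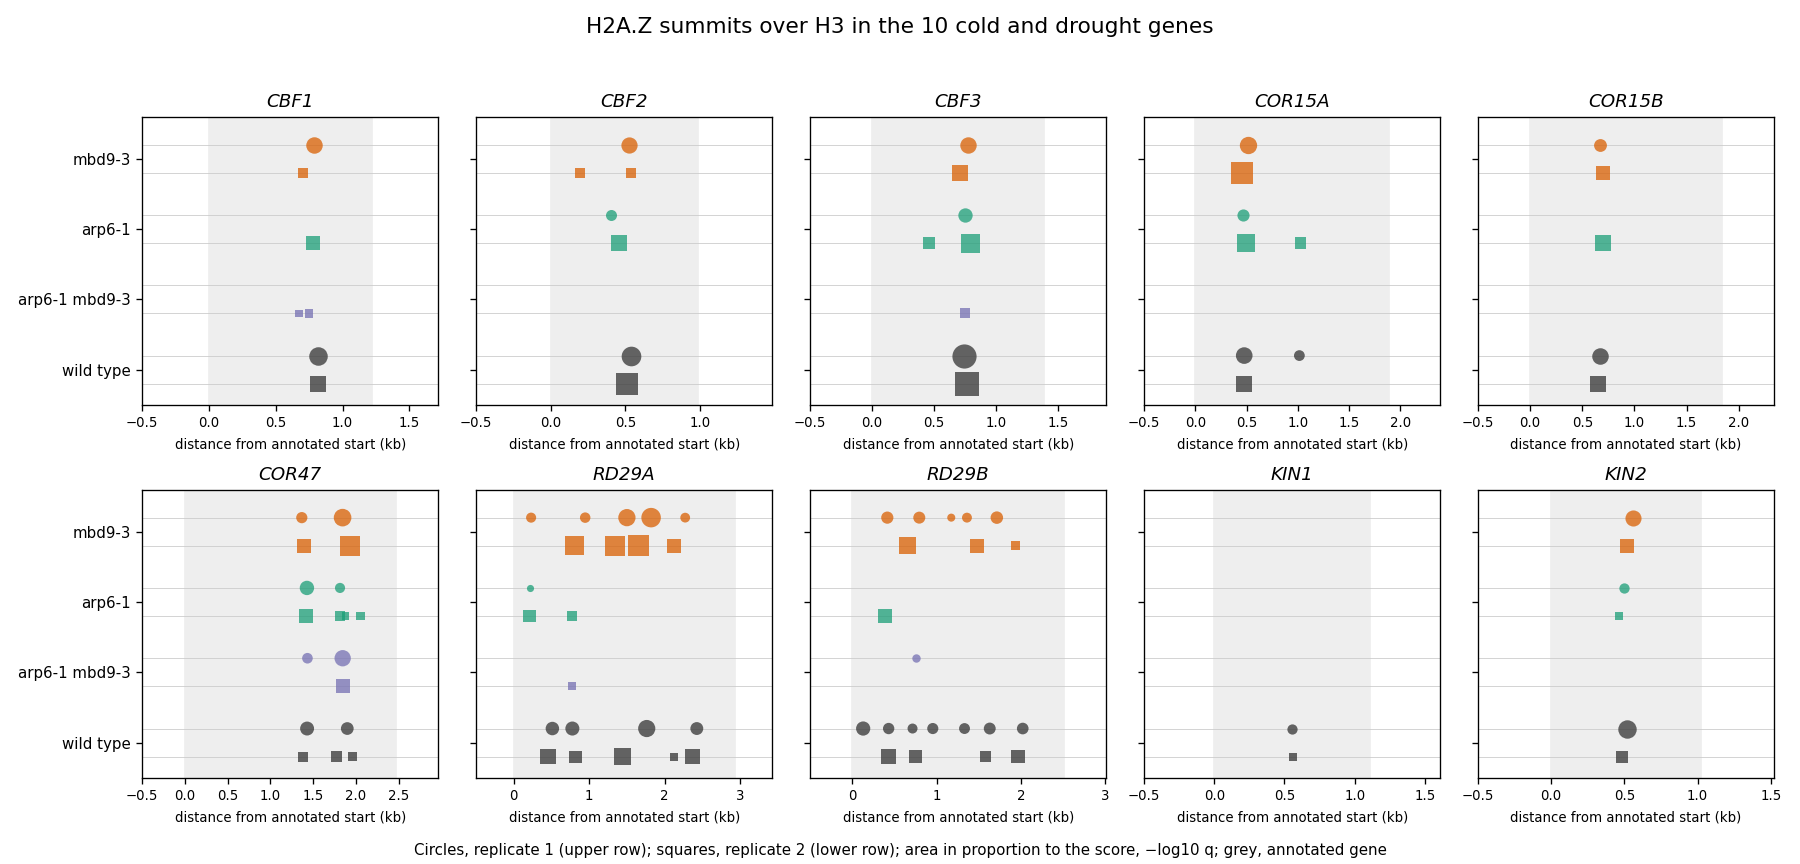
Positions of H2A.Z summits over H3 in each of the 10 genes, in kb from the annotated start, with the 3 mutants above wild type. Circles are replicate 1, squares replicate 2, and the area of a symbol is in proportion to its score. The CBF, COR15 and KIN genes held at most 2 summits per list, COR47 up to 4, and RD29A and RD29B up to 5 and 7. The arp6-1 mbd9-3 rows are nearly empty outside COR47.

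The CBF genes stand in tandem on the minus strand of chromosome 4 (TAIR10), in the order CBF2 (AT4G25470) at chr4:13015250-13016235, CBF3 (AT4G25480) at chr4:13018010-13019400 and CBF1 (AT4G25490) at chr4:13021780-13022996. Their coding sequences are 87.3% to 87.5% identical, and reads that map to several places had been dropped. To show how far the 3 genes can be told apart where H2A.Z was found, the same 100 coding bases of each are printed, with the bases that differ among the genes in capitals (19 of 100). They are read on the minus strand from chr4:13022143-13022242 for CBF1, chr4:13015658-13015757 for CBF2 and chr4:13018575-13018674 for CBF3, and hold the wild-type summit of replicate 1 of each gene at base 64, 63 and 19.
CBF1: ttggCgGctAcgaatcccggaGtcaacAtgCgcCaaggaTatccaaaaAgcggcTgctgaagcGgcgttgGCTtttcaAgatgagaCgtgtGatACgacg
CBF2: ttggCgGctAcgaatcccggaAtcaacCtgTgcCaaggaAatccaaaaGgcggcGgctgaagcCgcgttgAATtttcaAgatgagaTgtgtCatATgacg
CBF3: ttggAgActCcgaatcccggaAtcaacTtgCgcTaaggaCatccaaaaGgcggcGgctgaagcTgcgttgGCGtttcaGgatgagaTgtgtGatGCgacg
Within 150 bp of the wild-type summit, all 252 words of 50 bases occurred only once in the nuclear genome, in each CBF gene and likewise in each of the other 7 genes. Only exact matches were counted, so places that match with a few mismatches were not examined.

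H2A.Z over H3 at the CBF genes formed a main summit per gene in the middle of the coding sequence. At CBF3 the score was 10.8 and 9.49 in mbd9-3 (replicates 1 and 2, at 773 and 709 bp from the start), 8.22 and 14.5 in arp6-1 (746 and 795 bp), absent and 4.36 in arp6-1 mbd9-3 (748 bp), and 23.4 and 22.6 in wild type (744 and 763 bp). The wild-type summits of CBF3 ranked above 99.4% and 99.9% of all summits of their lists, the highest ranks among the 10 genes. CBF2 had 10.5 and 3.76 in mbd9-3 (526 and 537 bp), 4.86 and 9.25 in arp6-1 (405 and 459 bp), no summit in either replicate of arp6-1 mbd9-3, and 15.5 and 18.1 in wild type (540 and 512 bp). It ranked above 93.7% and 98.9% of the summits of the wild-type lists. CBF1 had 10.9 and 4.68 in mbd9-3 (783 and 705 bp), a summit of 7.49 at 776 bp in replicate 2 of arp6-1 only, summits of 2.19 and 2.96 in replicate 2 of arp6-1 mbd9-3 only, and 13.7 and 9.34 in wild type (817 and 819 bp). Thus in arp6-1 CBF2 and CBF3 were called and CBF1 was not, and in the double mutant none of the 3 was.

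Loss was called at each CBF gene in all 3 mutants, with most summits close to the wild-type summit. In mbd9-3 the loss at CBF1 scored 5.96 in replicate 1, at 817 bp, and in replicate 2 3.41 at 819 bp and 3.53 at 464 bp. The summits at 817 and 819 bp are on the same bases as the wild-type summits, and that at 464 bp is 355 bp away. At CBF2 it scored 5.14 and 4.85 (621 and 509 bp), and at CBF3 3.27 and 4.21 (772 and 769 bp). These are modest scores, above 70.1% of the list at most, and with a score of at least 5 asked of both replicates 0 of the 10 genes and 3.50% of all genes were called lost in mbd9-3. The loss summits of CBF2 in mbd9-3 lay 112 bp apart, so with a joining distance of 100 bp CBF1 and CBF3 were called and CBF2 was not. In arp6-1 the loss scored 7.52 and 5.14 at CBF1, 4.91 and 5.46 at CBF2, and 9.42 and 4.93 at CBF3. CBF2 also had a loss summit of 4.33 at 188 bp in replicate 2 of arp6-1. In arp6-1 mbd9-3 it scored 13.4 and 6.84 at CBF1, 9.998 and 14.6 at CBF2, and 18.0 and 12.8 at CBF3, above 95% and 89.1% of the list for CBF3. Loss in all 3 mutants was called at 8.81% of protein-coding genes and at 13.3% of those called in wild type.

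Between the double and the single mutant, only CBF3 was called. Its loss in arp6-1 mbd9-3 compared with arp6-1 scored 3.25 at 762 bp in replicate 1, and 3.04, 2.22 and 2.19 at 626, 794 and 843 bp in replicate 2, above no more than 11.1% of the summits of either list. CBF2 had such a loss in replicate 2 only, with a score of 4.46 at 419 bp, and CBF1 in neither replicate. Replicate 2 alone would call 3 of the 10 genes (CBF2, CBF3 and RD29B), against 8.04% of all protein-coding genes. Replicate 1 alone would call CBF3, against 4.71%.

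**Figure D3:**
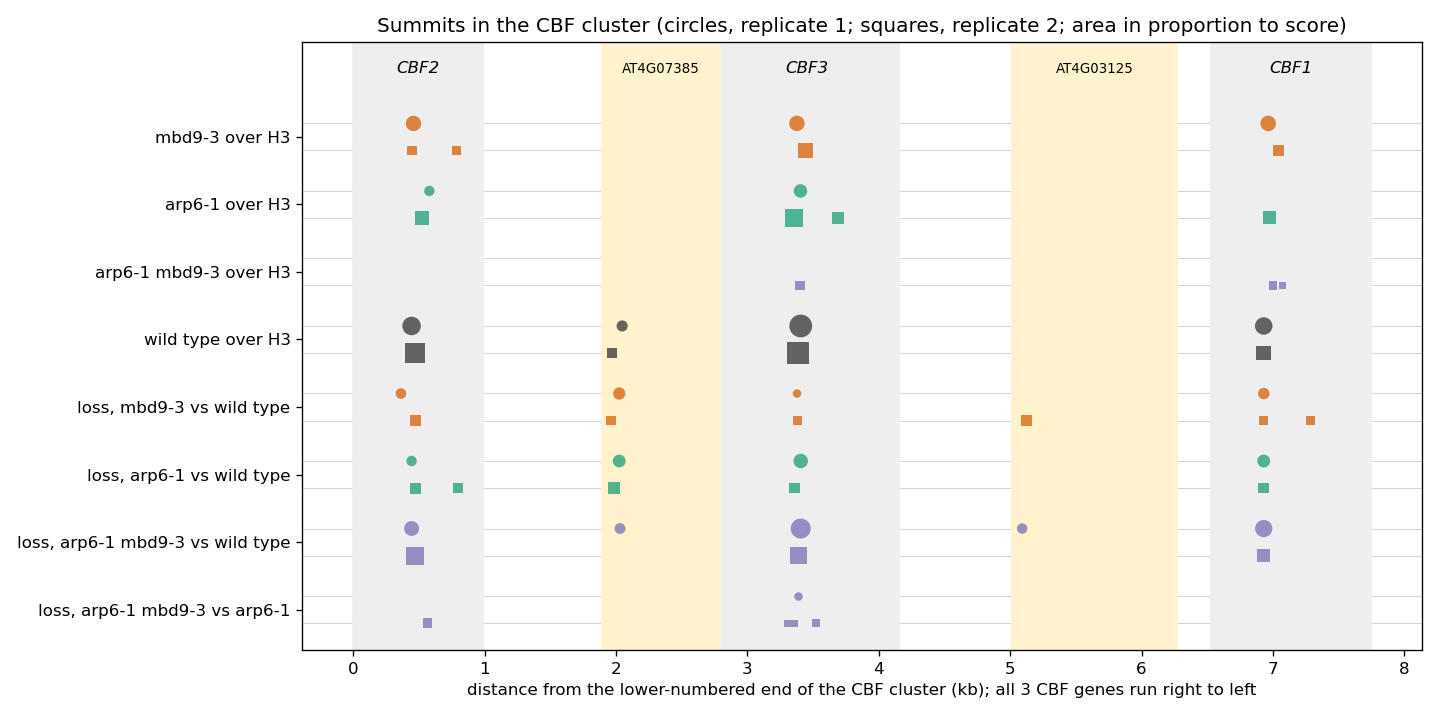
Summits across the CBF cluster, in kb from its lower-numbered end, with mutants above wild type in the upper 4 rows and loss in the lower 4. Circles are replicate 1, squares replicate 2, area in proportion to score. Grey bands are the CBF genes and yellow bands the annotated non-coding transcripts AT4G07385 and AT4G03125. Of the 56 summits shown, 47 lie inside a CBF gene, most of them close to the wild-type summit of that gene.

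RD29A and RD29B, the desiccation-responsive genes also called LTI78 and LTI65, encode large hydrophilic proteins. Both belong to the induced genes of the pathway, RD29A with cold, drought and abscisic acid and RD29B mainly with abscisic acid. They follow each other on the plus strand of chromosome 5, RD29B (AT5G52300) at chr5:21237021-21239531 and RD29A (AT5G52310) at chr5:21240717-21243644, with 1185 bp between them. In both, H2A.Z covered the gene body and not a single place.

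RD29A had 5 and 4 summits over H3 in mbd9-3, with highest scores of 15.2 and 16.9 at 1820 and 1652 bp. In arp6-1 it had 1 summit of 2.03 at 217 bp in replicate 1, and summits of 6.36 at 211 bp and 3.80 at 775 bp in replicate 2. In arp6-1 mbd9-3 a summit of 2.52 at 777 bp was found in replicate 2 only. In wild type it had 4 and 5 summits, spread from 511 to 2426 bp in replicate 1 and from 452 to 2369 bp in replicate 2, the highest scoring 11.8 and 11.9. Thus the summits found in arp6-1 and in the double mutant were all in the first 777 bp. Summits beyond were found in mbd9-3 and wild type only. Those of arp6-1 at 217 and 211 bp lay more than 200 bp from any wild-type summit of the same replicate. The nearest wild-type summits were at 511 and 452 bp. Of the genes called in wild type, 7.34% and 6.51% had 4 or more wild-type summits in the window.

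RD29B had 5 and 3 summits over H3 in mbd9-3, the highest scoring 6.25 and 11.02. It had 1 summit of 8.48 at 388 bp in replicate 2 of arp6-1 and 1 of 2.82 at 752 bp in replicate 1 of arp6-1 mbd9-3. In wild type it had 7 and 4 summits, the highest scoring 8.08 at 129 bp and 8.46 at 427 bp. Of genes called in wild type, 0.383% had 7 or more in replicate 1 and 6.51% had 4 or more in replicate 2. RD29B was therefore called in mbd9-3 and in wild type, and in neither genotype with arp6-1.

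Loss at the RD29 genes followed the same spread. At RD29A loss in arp6-1 was found at 5 places in replicate 1 and 3 in replicate 2, with highest scores of 6.48 at 2432 bp and 5.01 at 2372 bp. In arp6-1 mbd9-3 there were 3 and 5 places, with highest scores of 7.10 at 2426 bp and 5.02 at 1441 bp. At RD29B the highest losses scored 5.16 at 2003 bp and 8.46 at 1967 bp in arp6-1, and 6.003 at 129 bp and 6.99 at 427 bp in arp6-1 mbd9-3. Neither gene had a loss summit in either mbd9-3 list. Compared with arp6-1, the double mutant had 1 loss summit at RD29B, in replicate 2, with a score of 5.16 at 432 bp.

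**Figure D4:**
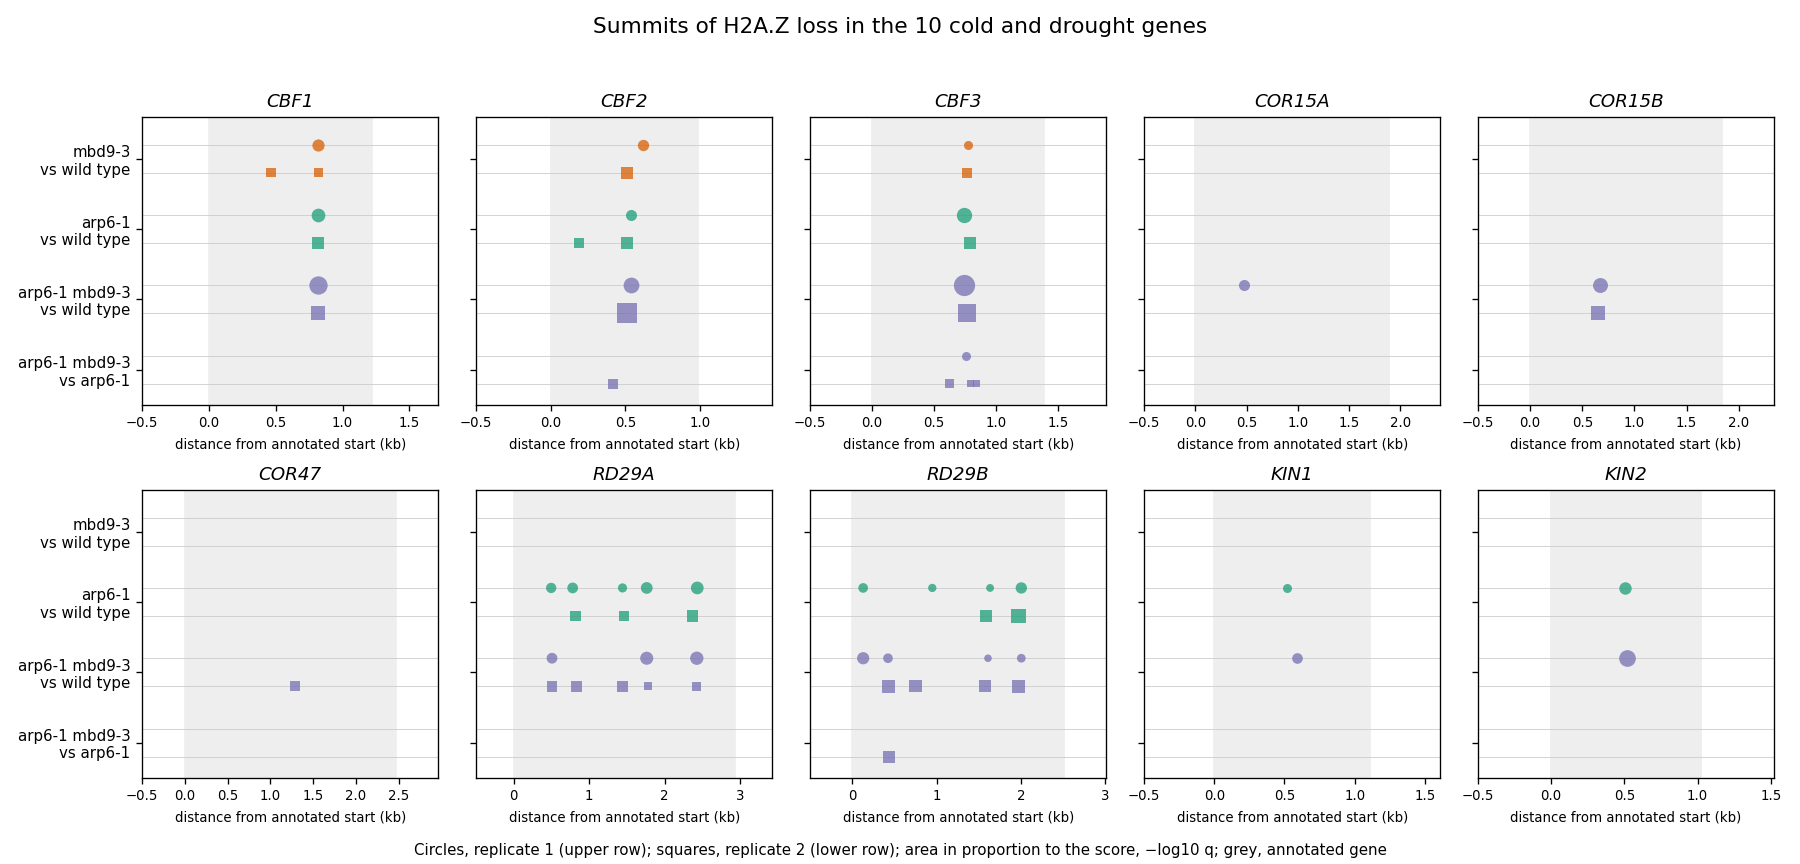
Positions of loss summits in each of the 10 genes, in kb from the annotated start, for the 4 comparisons. Circles are replicate 1, squares replicate 2, area in proportion to score. The top rows hold loss in mbd9-3 only in the panels of the CBF genes, and RD29A and RD29B show loss along the gene in arp6-1 and in the double mutant.

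COR15A and COR15B encode small proteins that are imported into chloroplasts and protect their membranes during freezing. They lie head to tail on the minus strand of chromosome 2, COR15B (AT2G42530) at chr2:17708593-17710433 and COR15A (AT2G42540) at chr2:17710441-17712330, only 7 bp apart, and their coding sequences are 83.8% identical. Their calls differed only for the summit in arp6-1 and for loss in arp6-1 mbd9-3. COR15A had 12 and 19.6 in mbd9-3 (510 and 451 bp), 5.91 and 13.7 in arp6-1 (463 and 493 bp), no summit in arp6-1 mbd9-3, and 11.1 and 10.4 in wild type (477 and 473 bp). COR15B had 6.59 and 7.83 in mbd9-3 (669 and 695 bp), 9.17 at 694 bp in replicate 2 of arp6-1 only, no summit in arp6-1 mbd9-3, and 10.9 and 11.1 in wild type (673 and 655 bp). In arp6-1, then, COR15A was called and COR15B was not, since COR15B had no summit in replicate 1. That list was the shorter of the pair, with 3827 summits against 7506.

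Loss in arp6-1 mbd9-3 scored 8.94 and 8.30 at COR15B (673 and 655 bp, the same bases as the wild-type summits). At COR15A it was found in replicate 1 only, with a score of 4.92 at 473 bp. Neither gene had a loss summit in arp6-1 or in mbd9-3. COR15A thus had no H2A.Z summit in either replicate of the double mutant, yet no common loss was called there.

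COR47 (AT1G20440), a dehydrin gene at chr1:7084409-7086873 on the minus strand, was the single gene of the 10 with a common summit in arp6-1 mbd9-3 and was in no comparison called lost. It had summits of 5.03 at 1367 bp and 12.4 at 1844 bp in replicate 1 of mbd9-3, and of 7.36 at 1394 bp and 16.1 at 1927 bp in replicate 2. In arp6-1 the highest scored 8.27 and 7.65, at 1427 and 1420 bp. In arp6-1 mbd9-3 replicate 1 held 4.52 at 1433 bp and 10.7 at 1845 bp, and replicate 2 held 7.16 at 1850 bp, above 99% and 92.7% of the summits of those short lists. In wild type the highest scored 7.77 at 1429 bp and 4.37 at 1774 bp, above 64.7% and 34.8% of the lists. These lists differ in length, so the percentages place the gene within each list and do not measure a change. The coding bases centred on the double-mutant summit of replicate 1, where H2A.Z was still found, are on the minus strand at chr1:7084978-7085078, all in lower case because nothing in them is compared.
COR47: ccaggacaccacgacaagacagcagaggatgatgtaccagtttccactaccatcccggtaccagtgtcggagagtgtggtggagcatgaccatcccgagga

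The 1 loss summit at COR47 scored 3.55 at 1282 bp in replicate 2 of arp6-1 mbd9-3, and replicate 2 alone would call it lost there. That replicate alone called 63.8% of all protein-coding genes lost in arp6-1 mbd9-3. With a flank of 1000 bp in place of 500 bp, COR47 was called lost in arp6-1 and in the double mutant, from summits outside the 500 bp window. The wider flank called 54.4% and 65.6% of all protein-coding genes lost. A common summit in all 4 genotypes with no common loss in any comparison was found at 50 protein-coding genes (0.182%). ERD10, the dehydrin gene next to COR47 and a member of the list of other responsive genes below, was also among them and is named after its values were seen. It scored 8.63 and 13.1 in mbd9-3, 5.36 and 7.36 in arp6-1, 5.80 and 3.33 in arp6-1 mbd9-3, and 11.4 and 5.64 in wild type. Loss summits were found at ERD10 in replicate 1 only, the highest scoring 4.96 in arp6-1 and 5.81 in arp6-1 mbd9-3. Where each summit was given only to the gene with the nearest start, COR47 was not called in arp6-1 mbd9-3, because the start of another gene is closer to that end of COR47.

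KIN1 (AT5G15960) and KIN2 (AT5G15970, also COR6.6) encode small, nearly identical hydrophilic proteins induced by cold and abscisic acid, and stand in tandem on the plus strand of chromosome 5 at chr5:5209717-5210826 and chr5:5211719-5212743. Their coding sequences are 95% identical, the closest pair among the 10. KIN1 had no summit over H3 in any mutant library, and 4.19 and 3.22 in wild type at 554 and 560 bp, above 26.0% and 15.8% of the lists, the lowest wild-type ranks of the 10. KIN2 had 10.4 and 7.10 in mbd9-3 (562 and 518 bp), 4.24 and 2.03 in arp6-1 (496 and 460 bp), no summit in arp6-1 mbd9-3, and 13.6 and 5.35 in wild type (520 and 481 bp). KIN2 was therefore called in mbd9-3, arp6-1 and wild type, and its 8 calls, those of COR15A too, were found together in 93 protein-coding genes (0.339%).

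Loss at the KIN genes was seen in replicate 1 only. It scored 3.25 in arp6-1 and 4.58 in the double mutant at KIN1, and 6.18 and 11.2 at KIN2. Replicate 1 alone would call both genes lost in arp6-1 and in the double mutant, and replicate 2 neither. Of all protein-coding genes, replicate 1 alone called 62.8% lost in arp6-1 and 68.5% in the double mutant. For replicate 2 alone the shares were 54.7% and 63.8%.

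**Figure D5:**
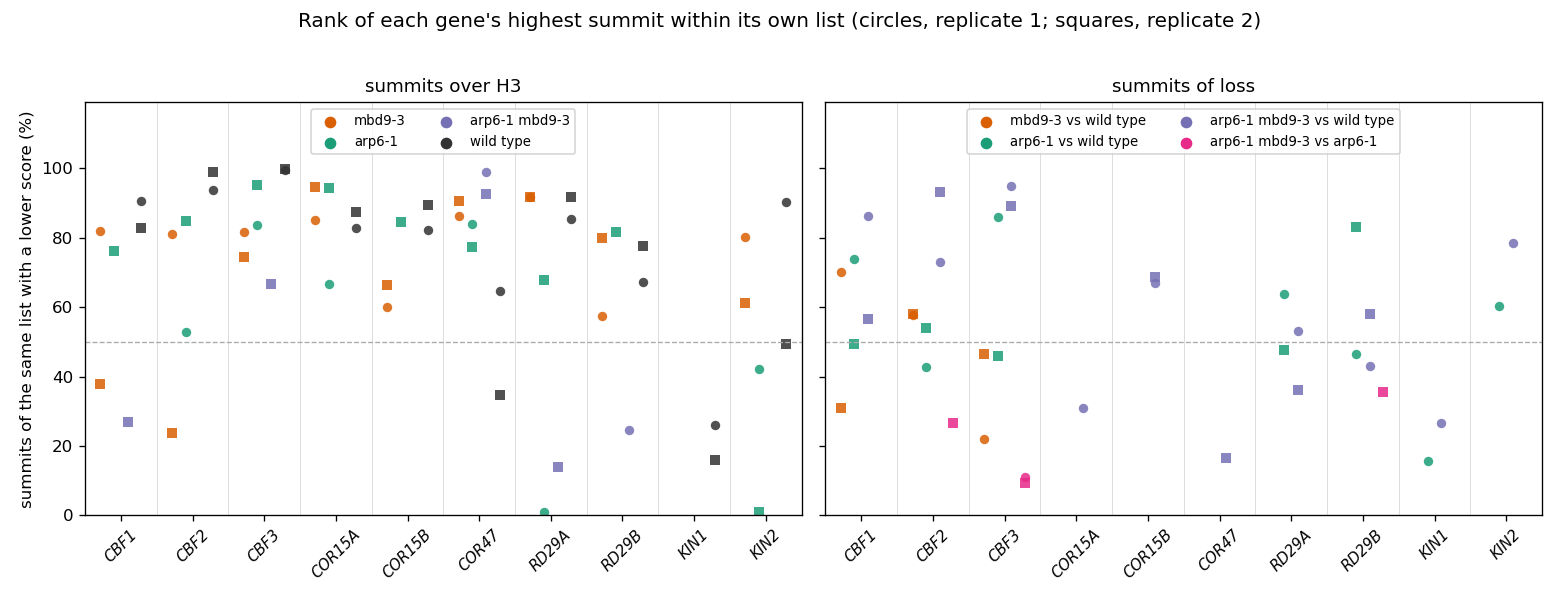
Rank of the highest summit of each gene within its own list, as the percent of summits of that list with a lower score, for summits over H3 (left) and loss (right). Circles are replicate 1, squares replicate 2, and the dashed line marks 50%. The CBF genes rank above 82.7% to 99.9% of their wild-type lists and above 21.9% to 70.1% of the mbd9-3 loss lists, and in the arp6-1 mbd9-3 lists COR47 ranks highest of the 10 genes.

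Over the 10 genes, loss summits fell on the wild-type summits. The median distance from a loss summit to the nearest wild-type summit of the same replicate was 6 bp in mbd9-3, 4 bp in arp6-1 and 0.0 bp in the double mutant, and 6 of 7, 21 of 23 and 27 of 28 of them were within 100 bp. Since the wild-type library enters both lists, the places are not independent measurements. The mutant summits over H3 come from other libraries, and their median distances to a wild-type summit were 48.0 bp in mbd9-3, 42.0 bp in arp6-1 and 48.0 bp in the double mutant, with 24 of 34, 17 of 22 and 7 of 8 within 100 bp. Most mutant summits over H3 thus lay near a wild-type summit. RD29A and RD29B hold 4 to 7 wild-type summits per list, so short distances there say little. No distance expected by chance was worked out. The arp6-1 summits of RD29A at 217 and 211 bp lay more than 200 bp from any wild-type summit.

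The binding element of the CBF proteins was looked for upstream of the same genes, to set it beside the H2A.Z positions. The CRT/DRE core CCGAC, or GTCGG on the other strand, was found within 500 bp before the start of 5 of the 10 genes, 3 times in RD29A, 2 times in COR15A, and 1 time each in COR15B, COR47 and RD29B, and not in this window of CBF1, CBF2, CBF3, KIN1 or KIN2. Of all protein-coding genes, 21.4% held at least 1 match and 3.73% at least 2. The bases between the annotated start and the start codon were not searched in any of the 10 genes. Among the genes without a match they span 434 bp in CBF1, 149 bp in CBF2, 397 bp in CBF3, 275 bp in KIN1 and 247 bp in KIN2. They are longest in COR47, with 1209 bp. The match nearest to the start is shown in capitals for 4 of the genes, with 20 bases on each side, for COR15A at chr2:17712385-17712429 and COR47 at chr1:7087217-7087261 on the minus strand, and for RD29A at chr5:21240664-21240708 and RD29B at chr5:21236865-21236909 on the plus strand.
COR15A: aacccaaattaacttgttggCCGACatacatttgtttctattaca
COR47: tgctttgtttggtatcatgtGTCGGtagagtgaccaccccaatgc
RD29A: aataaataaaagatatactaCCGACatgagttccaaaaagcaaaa
RD29B: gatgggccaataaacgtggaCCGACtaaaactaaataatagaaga
These matches start 79, 368, 33 and 136 bp before the annotated starts. No H2A.Z summit of any list lay in these upstream windows, and the nearest wild-type summit to a match was 552 bp away in COR15A, 1747 bp in COR47, 485 bp in RD29A and 265 bp in RD29B.

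Further genes of the cold and drought pathway were read by the same rule. Beside this list and those that follow stand the shares of all protein-coding genes. For a common summit these were 32.3% in mbd9-3, 9.77% in arp6-1, 1.32% in arp6-1 mbd9-3 and 55.2% in wild type. For loss they were 10.8% in mbd9-3, 46.9% in arp6-1, 57.9% in arp6-1 mbd9-3, and 3.48% in arp6-1 mbd9-3 compared with arp6-1. Of 11 upstream regulators of the CBF genes, 1 had a common summit in mbd9-3 (OST1, an abscisic acid-activated kinase), 0 in arp6-1 and in the double mutant, and 4 in wild type. The 7 without a wild-type call were ICE1 and SCRM2, which encode the bHLH activators of CBF3, the calmodulin-binding factors CAMTA1, CAMTA2 and CAMTA3, the ubiquitin ligase gene HOS1, and PIF4. Loss was called at 1 of the 11 in mbd9-3 (CAMTA1, with scores of 5.44 and 8.07), at 4 in arp6-1, at 7 in arp6-1 mbd9-3, and at 0 in arp6-1 mbd9-3 compared with arp6-1. CAMTA1 had no summit over H3 in either wild-type list, so its loss call stands without a wild-type peak.

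Of 13 other DREB and cold or abscisic acid transcription factors, 7 had a common summit in mbd9-3, 3 in arp6-1, 0 in arp6-1 mbd9-3 and 9 in wild type, all but HSFC1, ABF2, ABF3 and ABF4. Loss was called at 2 of them in mbd9-3, 5 in arp6-1, 8 in arp6-1 mbd9-3 and 0 compared with arp6-1. The 2 were DDF1, a DREB gene related to the CBF genes, with scores of 6.38 and 2.29, and ZAT12, a zinc finger gene of the cold response, with 4.77 and 6.29. ZAT12 also had no summit over H3 in either mbd9-3 list, against 12.2 and 9.25 in wild type. The other DREB1 genes CBF4 and DDF2, named after their values were seen, had no loss summit in mbd9-3.

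Of 15 other cold, drought and abscisic acid responsive genes, 11 had a common summit in mbd9-3, 6 in arp6-1, 2 in arp6-1 mbd9-3 (ERD10 and GOLS3) and 12 in wild type, all but COR413PM1, RD20 and P5CS1. Loss was called at 0 in mbd9-3, 9 in arp6-1, 13 in arp6-1 mbd9-3 and 1 compared with arp6-1. That 1 was COR28, a regulator of freezing tolerance and the clock, where the further loss scored 9.72 and 14.3. Loss in mbd9-3 was thus called at 0 of these 15 genes and at 0 of the 7 COR, RD29 and KIN genes, against 3 of the 3 CBF genes, 10.8% of all genes and 15.7% of those called in wild type. With a flank of 1000 bp KIN2 was called as well, as were 13.7% of all genes. With a joining distance of 100 bp 2 of the CBF genes were left, against 9.74% of all genes. The 3 CBF genes are tandem neighbours within 7747 bp, so they may not be independent cases. These lists are small and were chosen by role, with earlier results of these data known. The difference between them was not tested.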

How the data were processed

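The authors aligned H2A.Z and H3 ChIP-seq reads to TAIR10 with Bowtie, discarding reads with several matches and, with SAMtools, duplicates. Peaks were called per replicate by MACS2 2.1.1 (q limit 0.01, extension 200). The deposited summit lists, 8 of H2A.Z over H3 and 8 between genotypes, give each summit's −log10 q value, and 0 summits lay outside the chromosome lengths. Read counts and peak edges were not used here, so depth is unknown, and the scaling between genotypes is not given in the sources used here.

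Summits were assigned to the 27444 protein-coding genes of the TAIR10.1 RefSeq annotation with Python 3.11.15, numpy 2.4.6 and biopython 1.88, and drawn with matplotlib 3.10.9. A gene was called when summits of both replicates within 500 bp of it lay at most 200 bp apart, and the calling step was tested on simulated data. Other flanks, joining distances, score minimums and assignments, and each replicate alone, were tried. The 10 genes and the 3 pathway lists were chosen with earlier results of these data known. Named were the 10 genes, pathway genes called lost in mbd9-3 or in arp6-1 mbd9-3 compared with arp6-1, pathway genes without a common wild-type summit, and any neighbour gene holding a summit of the window, of which there were 0. Coding sequences were aligned globally. Replicates were grown on separate plates.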

Additional observations from a re-analysis of the deposited data

How the results depend on the processing

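The 8 counts of called genes were recomputed under 12 alternatives, and 79 of 96 values were within 1.5 times the reported count. With a score of at least 5, 3 of the 10 genes had a common summit in arp6-1, 3 were lost in arp6-1, 0 in mbd9-3 and 0 in arp6-1 mbd9-3 compared with arp6-1. With a score of at least 10, common summits were left at 3 genes in mbd9-3, 0 in arp6-1, 0 in arp6-1 mbd9-3 and 4 in wild type, and loss at 0 in mbd9-3, 0 in arp6-1, 1 in arp6-1 mbd9-3 and 0 compared with arp6-1. Of all protein-coding genes, 8.94%, 1.08%, 0.0182% and 10.1% kept a common summit, in the same order. Loss was left at 0.215%, 3.53%, 14.9% and 0.550% of them. A flank of 1000 bp gave 2 genes with loss in arp6-1 mbd9-3 compared with arp6-1 (CBF3 and RD29B), against 4.34% of all protein-coding genes. It added KIN2 to the loss in mbd9-3 (4 genes, against 13.7%) and COR47 and KIN2 to that in arp6-1 (7, against 54.4%). To the loss in arp6-1 mbd9-3 it added COR15A, COR47 and KIN2 (9, against 65.6%). It also added RD29B to the summits in arp6-1 (7, against 12.2%). A joining distance of 100 bp dropped CBF2 from the loss in mbd9-3 (2 genes, against 9.74% of all protein-coding genes). It dropped RD29A and RD29B from the summits in mbd9-3 (7, against 29.3%). Giving each summit to the nearest start gave 0 genes with a common summit in arp6-1 mbd9-3, against 1.18% of all protein-coding genes. Either replicate alone gave 9 and 9 genes with a summit in mbd9-3, 6 to 9 in arp6-1, 2 to 4 in arp6-1 mbd9-3 and 10 in wild type, and 3 with loss in mbd9-3, 5 to 7 in arp6-1, 7 to 9 in arp6-1 mbd9-3 and 1 to 3 compared with arp6-1. Of all protein-coding genes, 37.3% to 42.0%, 12.2% to 21.3%, 3.80% to 3.93% and 59.9% to 66.8% had a summit, in the same order. Loss was found at 17.8% to 26.8%, 54.7% to 62.8%, 63.8% to 68.5% and 4.71% to 8.04% of them. Flanks of 0 and 250 bp, joining distances of 500 bp or any length, and leaving out summits inside another gene changed none of the 8 counts. No paired analysis was possible because the counts come from no test between samples, although each list already compares libraries of the same replicate number. The limits are the absence of read counts, the unknown scaling between libraries and 2 replicates per genotype.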

Other observations

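Between CBF2 and CBF3 lies the annotated long non-coding RNA gene AT4G07385, which overlaps the annotated 3′ end of CBF3. Its place was looked at after its summits were seen, and only summits inside the transcript were counted, without the 500 bp flanks. AT4G07385 had no summit over H3 in mbd9-3, arp6-1 or arp6-1 mbd9-3, and summits of 5.62 and 3.94 in wild type, 156 and 78 bp from its annotated start. Loss there scored 6.79 and 4.20 in mbd9-3, 7.47 and 5.61 in arp6-1, and 5.39 in replicate 1 of arp6-1 mbd9-3 only. Common loss in mbd9-3 was thus called at 4 places of the CBF cluster, the 3 CBF genes and this transcript, and it was the only one of the 4 without a summit over H3 in mbd9-3. The annotated transcript AT4G03125, between CBF3 and CBF1 and also read without flanks, had a loss summit of 4.80 in replicate 2 of mbd9-3. It had 1 of 4.97 in replicate 1 of arp6-1 mbd9-3, and no common call.

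GOLS3, which encodes a galactinol synthase of the cold response and is named after its values were seen, kept a common summit in arp6-1 mbd9-3 like COR47 and ERD10. It scored 9.92 and 11.6 in mbd9-3, 6.998 and 8.74 in arp6-1, 5.36 and 3.33 in arp6-1 mbd9-3, and 15.7 and 16.7 in wild type. Unlike COR47 and ERD10 it was also called lost in arp6-1 mbd9-3, with scores of 5.96 and 4.25.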
